A study of Mus musculus with 18 samples.

Results

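Sertoli cells are the somatic nurse cells of the seminiferous tubule, and 10 genes of their identity and function were followed through whole testis RNA of repro9/repro9 mutant and wild-type mice. The genes were Sox9, Gata4, Wt1 and Rhox5 (transcription factors), Amh, Inha, Inhbb and Dhh (secreted ligands or their subunits), Fshr (a hormone receptor) and Cldn11 (a tight junction protein). They were chosen by name, and every probe set annotated to one of them alone was taken. This gave 15 probe sets, all of which passed the filter on dim signals, and the 10 genes stand among 15307 genes tested. Each gene is described by its brightest probe set unless another is named. By the reference annotation (GRCm38.p6) Inha and Inhbb lie on chromosome 1, Wt1 on 2, Cldn11 on 3, Amh on 10, Sox9 on 11, Gata4 on 14, Dhh on 15, Fshr on 17 and Rhox5 on X.

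Testes were sampled at 14 and 17 days postpartum (dpp), ages that the series' text chose for early to mid and for late spermatocytes of the pachytene stage. The groups were repro9/repro9 mutants at 14 dpp (n = 5 arrays), wild type at 14 dpp (n = 3), mutants at 17 dpp (n = 5) and wild type at 17 dpp (n = 5). The repro9 allele is a chemically induced mutation of Mybl1, which encodes the germ cell transcription factor A-MYB. Mutants carried the allele in every cell, and the labels name neither the background strain nor whether an array held 1 animal or a pool, so the p-values measure the spread between arrays.

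Sertoli cells are set up in the fetal testis by SOX9, with WT1 and GATA4, and stop dividing in the weeks after birth as the tubule matures. Anti-Müllerian hormone (Amh) marks the immature cell and declines with maturation, while inhibin, made from the Inha and Inhbb products, feeds back on pituitary follicle-stimulating hormone, whose receptor is Fshr. Claudin 11 (Cldn11) forms the tight junctions of the blood-testis barrier behind which spermatocytes develop, and desert hedgehog (Dhh) signals from Sertoli cells to Leydig and peritubular cells.

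Promoters are shown for Inha, Inhbb, Cldn11 and Dhh, which were higher together in 17 dpp mutants once the array set, explained below, was taken into account. The windows run from 250 bases before to 50 bases after the annotated start (RefSeq, mouse build GRCm38.p6), and are printed 5′ to 3′ on the gene's strand with matches to the MYB motif in capitals. Sox9, the fifth gene of that group, is named only.
Inha, chr1:75507359-75507658, plus strand: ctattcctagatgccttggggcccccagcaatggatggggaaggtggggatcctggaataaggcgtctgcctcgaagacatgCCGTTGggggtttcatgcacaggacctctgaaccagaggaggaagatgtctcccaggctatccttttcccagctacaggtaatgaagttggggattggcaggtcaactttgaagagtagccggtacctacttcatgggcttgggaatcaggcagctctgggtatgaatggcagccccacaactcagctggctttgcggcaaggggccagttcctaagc
Inhbb, chr1:119422199-119422498, minus strand: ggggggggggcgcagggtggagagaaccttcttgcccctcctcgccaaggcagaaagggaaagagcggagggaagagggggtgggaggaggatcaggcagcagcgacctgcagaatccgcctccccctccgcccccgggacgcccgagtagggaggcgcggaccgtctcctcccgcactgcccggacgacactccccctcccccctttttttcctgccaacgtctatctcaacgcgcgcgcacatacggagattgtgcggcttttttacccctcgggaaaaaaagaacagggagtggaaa
Cldn11, chr3:31149670-31149969, plus strand: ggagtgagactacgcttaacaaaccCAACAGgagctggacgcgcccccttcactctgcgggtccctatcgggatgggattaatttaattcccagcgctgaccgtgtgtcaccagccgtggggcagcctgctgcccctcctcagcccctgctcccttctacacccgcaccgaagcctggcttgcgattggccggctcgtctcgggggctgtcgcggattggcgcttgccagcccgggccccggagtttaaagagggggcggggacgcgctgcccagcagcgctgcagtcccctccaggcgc
Dhh, chr15:98898491-98898790, minus strand: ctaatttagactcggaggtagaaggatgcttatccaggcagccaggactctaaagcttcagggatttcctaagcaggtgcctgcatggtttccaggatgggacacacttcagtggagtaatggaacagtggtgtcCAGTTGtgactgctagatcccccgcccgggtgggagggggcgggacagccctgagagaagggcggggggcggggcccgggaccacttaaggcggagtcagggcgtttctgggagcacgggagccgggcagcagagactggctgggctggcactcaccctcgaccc
The MYB motif (CAACNG or TAACNG, either strand) occurred once in the windows of Inha, Cldn11 and Dhh and not in that of Inhbb. Over all 32851 promoter windows of this length, 49.7% held it. Its first base lay 168 bases before the start in Inha, as CCGTTG, 225 bases before it in Cldn11, as CAACAG, and 115 bases before it in Dhh, as CAGTTG. Fshr (chromosome 17) and Rhox5 (chromosome X) also had windows, without that motif, so that 6 of the 10 genes could be searched. The GATA motif (AGATAA or TGATAA, in 18.6% of all windows), the NR5A1 motif (AAGGTCA, 4.72%) and the cAMP response element (TGACGTCA, 1.79%) were found in none of the 6. The SOX motif (AACAAT, 10.7%) was found in the window of Rhox5. The windows of Inhbb and Cldn11 held 23 and 24 CpG dinucleotides, against a median of 7 over all windows, while Inha held 5 and Dhh 12.

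All values are MAS5 signal, the linear intensity per probe set that the Affymetrix software computes, and differences are on the log2 scale, mutant minus wild type. The arrays fell into 3 technical sets according to the β-actin controls, for which probe sets at the 3′ and the 5′ end of the transcript are compared. The 3′ over 5′ ratio was 2.31 to 2.92 in array set 1 (7 arrays of all 4 groups), 1.45 to 1.49 in set 2 (4 arrays of 14 dpp) and 103 to 125 in set 3 (7 arrays of 17 dpp). Set 1 held 2 mutants and 1 wild type of 17 dpp, and set 3 held 3 mutants and 4 wild types. The sets are not in the labels, and they were fitted as a block beside the model of 4 group means. The arrays' median signals lay between 88.7 and 149. The genotype labels were borne out by pachytene spermatocyte markers, whose summed signal of 11 genes was 3176 to 4799 in mutants and 82168 to 178703 in wild type at 17 dpp. All 10 genes gave signals past the filter, of which Amh was dim at 17 dpp (15.7 to 133, where the 40th percentile of an array lay between 49.2 and 93.4). The genes were named as Sertoli cell genes beforehand, and whole testis RNA does not show which cells made their transcripts.

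At 17 dpp the 10 Sertoli cell genes had higher means in mutants than in wild type, by 0.16 (Gata4) to 1.18 (Inha) with a median of 0.70. The median difference of all probe sets was 0.25, and 8 of the 10 genes lay above it. In the model of 4 group means no member passed a Benjamini-Hochberg adjusted p of 0.05 (limma, adjusted p from 0.137 to 0.861), while 5.33% of all probe sets did. With the replicate number as a block, Dhh alone passed (limma, adjusted p = 0.0127), at the same difference of 1.16 as without it. The share of all probe sets that passed with the replicate block is not given. Replicate 2 of 17 dpp joins a mutant of set 1 with a wild type of set 3, so this block leaves differences between array sets in. At an unadjusted p below 0.05 there were 4 member genes (Sox9, Inhbb, Dhh and Fshr), against 19.4% of all probe sets. With the array set as a block, Sox9, Inha, Inhbb, Dhh and Cldn11 were called higher and none lower, so 5 of 10, where 10.8% of all probe sets were called higher and 18.8% in either direction. The members' median was then 0.55 and that of all probe sets 0.24. Within set 3 alone 2 were called (Sox9 and Dhh, with 11.5% of all probe sets), and within set 1 none (2.85%). Set 1 holds a single wild-type array of 17 dpp, which the fit assumes to vary like the arrays of the other groups, so the p-values within set 1 rest on their spread. The trimmed mean signal was the same on all arrays of a set, so signals are relative to the rest of the RNA. In whole testis RNA, more cells of a type, more RNA per cell and less RNA from other cells cannot be told apart.

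**Figure D1:**
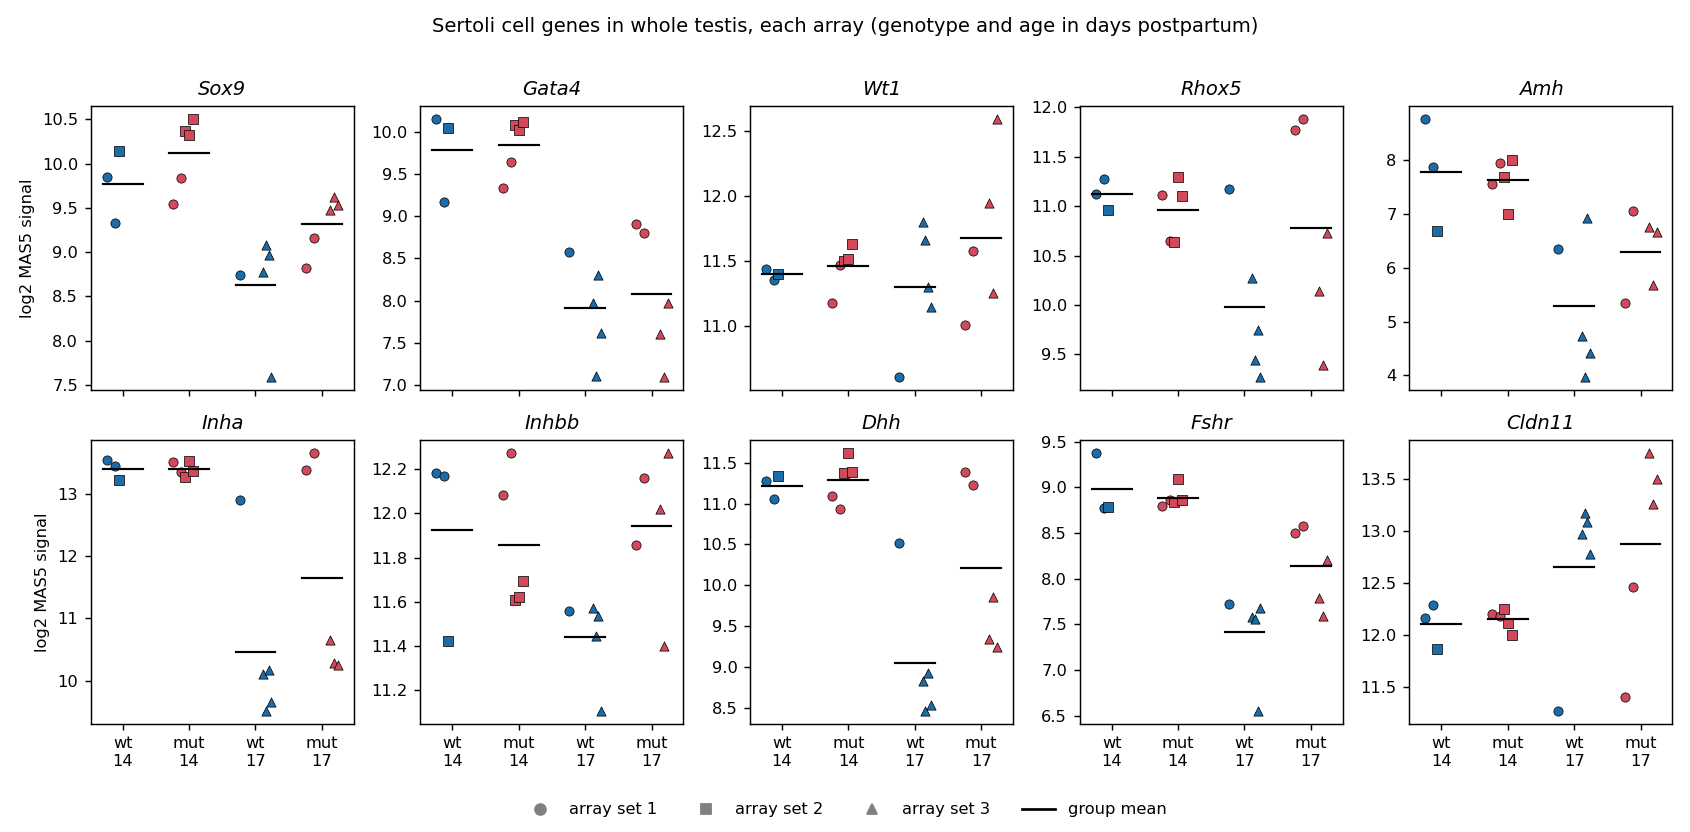
Log2 MAS5 signal of the 10 Sertoli cell genes on each of the 18 arrays, by genotype (blue, wild type; red, mutant) and age in dpp, with the marker shape giving the array set and the bar the group mean. Inha, Dhh and Cldn11 separate by array set at 17 dpp more than by genotype, and within each of sets 1 and 3 the mutants of these 3 genes lie above the wild types. Of all probe sets, 52.6% in set 1 and 8.64% in set 3 have every mutant above every wild type.

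Of the transcription factors, Sox9, which directs the Sertoli cell fate, gave 17 dpp signals of 451, 570, 712, 791 and 742 in mutants and 427, 439, 540, 500 and 193 in wild type. The groups overlapped, since the lowest mutant lay below 2 wild types. The difference was 0.69 ± 0.30 (limma SE, adjusted p = 0.207), and 0.75 ± 0.24 with the block (adjusted p = 0.038). Within set 3, where the 3 mutants all lay above the 4 wild types (as in 8.64% of all probe sets), it was 0.94 ± 0.29 (limma, adjusted p = 0.0471). Within set 1 it was 0.25 ± 0.47 (adjusted p = 0.942). Sox9 had 2 further probe sets. The first, 1424950_at, differed by 1.07 ± 0.40 (adjusted p = 0.135) and by 0.83 ± 0.28 with the block (adjusted p = 0.0461). The other, 1433889_at, was dim, with signals of 11.2 to 217 at 17 dpp, and had the opposite sign at -0.66 ± 0.63 (adjusted p = 0.611).

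Wt1, a zinc finger regulator needed to keep the Sertoli cell fate, had 17 dpp signals of 2059, 3053, 3940, 2450 and 6183 in mutants. In wild type Wt1 gave 1563, 3564, 3234, 2520 and 2271. The groups overlapped, with 2 mutants (3940 and 6183) above every wild type. The difference for Wt1 was 0.37 ± 0.27 (limma, adjusted p = 0.484) and 0.52 ± 0.20 with the block (adjusted p = 0.0856).

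Rhox5, an X-linked homeobox gene that answers to androgen in Sertoli cells, gave 3485, 3771, 1128, 672 and 1701 in mutants. Its wild-type signals were 2306, 1233, 697, 860 and 619. In both genotypes the arrays of set 1 were the highest. The Rhox5 difference was 0.80 ± 0.42 (limma, adjusted p = 0.313) and 0.47 ± 0.23 with the block (adjusted p = 0.169).

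Gata4, a zinc finger factor that activates several Sertoli and Leydig cell genes, stood apart from the others. Its signals were 479, 445, 195, 137 and 252 in mutants and 383, 251, 138, 316 and 196 in wild type, so that the mutants enclosed the wild types. The difference was 0.16 ± 0.37 (limma, adjusted p = 0.861) and changed sign to -0.06 ± 0.25 with the block (adjusted p = 0.89). The dimmer Gata4 probe set, 1418864_at, differed by 1.16 ± 0.50 with the block (adjusted p = 0.12), on signals of 10.5 to 142.

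Among the secreted ligands, Inha, the α subunit shared by the inhibins, gave the largest difference in the model of group means. Its 17 dpp signals were 10714 and 12914 in the mutants of set 1 against 7659 in the wild type of that set. In set 3 they were 1613, 1250 and 1214 in mutants against 1099, 730, 1147 and 804 in wild type. Every mutant therefore lay above every wild type of its own set, while a wild-type array of set 1 was higher than all mutants of set 3. Of all probe sets, 52.6% had every mutant above within set 1 and 8.64% within set 3. The difference was 1.18 ± 0.67 over all arrays (limma, adjusted p = 0.353). With the block it was 0.56 ± 0.14, a 1.48-fold higher level (adjusted p = 0.00996), with 0.62 ± 0.29 within set 1 and 0.54 ± 0.18 within set 3.

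Dhh, the hedgehog ligand of the testis, had the lowest adjusted p of the 10 genes in both models. Its signals were 2675 and 2396 in the mutants of set 1 against 1470 in the wild type there. In set 3 Dhh gave 651, 930 and 606 in mutants against 452, 352, 487 and 369 in wild type. As for Inha, the mutants lay above the wild types within each set. The difference was 1.16 ± 0.43 (limma, adjusted p = 0.137), and with the block 0.80 ± 0.15, a 1.74-fold higher level (adjusted p = 0.00102). It was 0.78 ± 0.29 within set 1 and 0.80 ± 0.18 within set 3 (adjusted p = 0.247 and 0.0109). Dhh was the 1 member that the model of group means called once the wild-type array of set 1 was left out, where the share of all probe sets called is not given. The second probe set, 1422127_at, gave 0.85 ± 0.44 with the block (adjusted p = 0.191), with signals down to 5.77.

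Inhbb, the β subunit that pairs with the Inha product in inhibin B or with itself in activin B, shifted less between array sets 1 and 3 at 17 dpp than Inha or Dhh. Its signals were 3711, 4574, 4156, 2705 and 4944 in mutants and 3013, 3048, 2787, 2969 and 2206 in wild type. Of the 5 mutants, 4 lay above all wild types. The difference for Inhbb was 0.50 ± 0.22 (limma, adjusted p = 0.21) and 0.47 ± 0.15 with the block (adjusted p = 0.035). Its second probe set, 1426859_at, gave 0.50 ± 0.28 with the block (adjusted p = 0.224) and differed by -1.14 in mutants and -1.77 in wild type between set 3 and set 1. At 14 dpp the brightest probe set of Inhbb had a mean log2 signal of 12.18 in set 1 in both genotypes, and of 11.64 in mutants and 11.42 in wild type in set 2.

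Amh, the hormone of the immature Sertoli cell, was dim at 17 dpp and varied widely. Its signals were 40.7, 133, 108, 51.5 and 101 in mutants and 81.7, 26.7, 15.7, 121 and 21.3 in wild type. The wild types fell into 3 arrays at 15.7 to 26.7 and 2 arrays within the range of the mutants. The Amh difference was 1.02 ± 0.56 (limma, adjusted p = 0.332) and 0.93 ± 0.55 with the block (adjusted p = 0.251).

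Fshr, the receptor through which follicle-stimulating hormone drives Sertoli cell growth and secretion, gave 363, 381, 222, 193 and 295 in mutants. In wild type its signals were 212, 192, 189, 93.8 and 205. A single mutant array lay below the highest wild types. The difference was 0.71 ± 0.28 (limma, adjusted p = 0.158) and 0.60 ± 0.23 with the block (adjusted p = 0.0786).

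Cldn11 showed the array sets in the opposite direction to Inha and Dhh. Its signals in set 1 were 2695 and 5632 in mutants and 2461 in wild type. In set 3 they were 13765, 9759 and 11606 in mutants against 8020, 9195, 8694 and 7019 in wild type. The mutants lay above the wild types within each set, as 52.6% of all probe sets did in set 1 and 8.64% in set 3. The sets differed by more than the genotypes. The Cldn11 difference was 0.22 ± 0.39 over all arrays (limma, adjusted p = 0.812) and 0.55 ± 0.17 with the block (adjusted p = 0.0287).

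**Figure D2:**
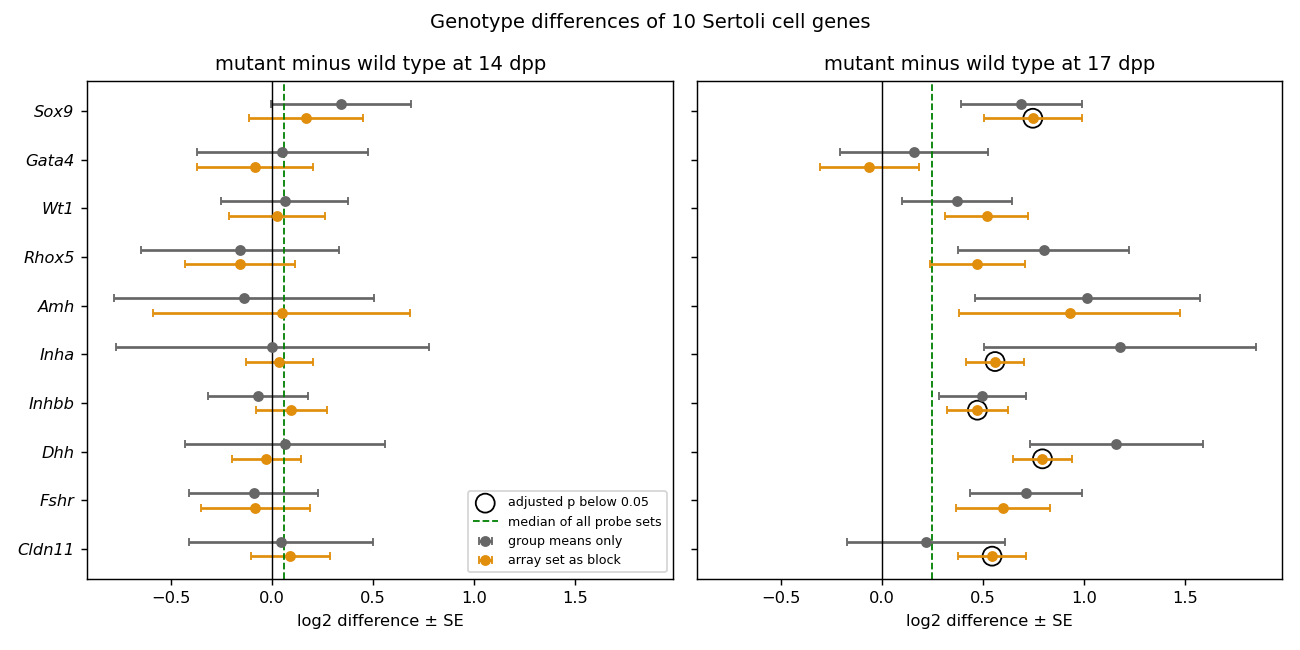
Log2 difference, mutant minus wild type, with its SE for the 10 genes at 14 dpp (left) and 17 dpp (right), from the model of 4 group means (grey) and with the array set as a block (orange), with circles at an adjusted p below 0.05 and a dashed line at the median of all probe sets in the model of group means. At 14 dpp the differences lie around 0, and at 17 dpp 5 genes are circled, all with the block, while Gata4 lies near 0.

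Over all 10 arrays of 17 dpp no member had every mutant above every wild type, where 1.54% of all probe sets did. Within set 3 there were 4 such genes (Sox9, Inha, Dhh and Cldn11), against 8.64% of all probe sets. Within set 1, with 2 mutants and 1 wild type, there were 9, against 52.6% of all probe sets, and the exception was Amh. Relative to the median of all probe sets, the 5 genes called with the block were higher by 0.56 (Dhh), 0.51 (Sox9), 0.32 (Inha), 0.31 (Cldn11) and 0.24 (Inhbb). Centring every array on a common median left 2 of them past the threshold with the block, Inha and Dhh, with 9 of the 10 differences still positive. Leaving out single arrays gave 2 to 6 member genes called with the block, Inha and Dhh in each case. Without the fifth 17 dpp mutant or the second, 3 were called. The count was 2 without the third mutant, and 3 without the first or the fifth 17 dpp wild type. The shares of all probe sets called in these refits and with the common median are not given, so these counts cannot be set against them.

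At 14 dpp no member had all mutants above or all below the wild types over all arrays. The differences ran from -0.16 (Rhox5) to 0.34 (Sox9), with a median of 0.02 where all probe sets had 0.06. No member was called by limma, with or without the block, at the adjusted threshold (0.196% and 0.368% of all probe sets called) or at an unadjusted p below 0.05 (2% and 3.7%). Inha gave 11708, 10467, 9852, 11747 and 10515 in mutants and 11914, 11164 and 9543 in wild type, a difference of 0.00 ± 0.78, or 0.04 ± 0.17 with the block. Dhh gave 2193, 1962, 2660, 3150 and 2688 in mutants and 2473, 2126 and 2588 in wild type, with a difference of 0.06 ± 0.50, or -0.03 ± 0.17 with the block. Over all arrays 2.37% of all probe sets had every mutant above every wild type and 3.08% had every mutant below. Within set 2, with 3 mutants and 1 wild type, 8 of the 10 genes had all mutants above (28.9% of all probe sets) and all 10 differences were positive. Within set 1, with 2 arrays of each genotype, Rhox5 had both mutants below (20.4% of all probe sets) and 8 differences were negative, so that the direction differed between the sets. With array weights Sox9 alone was called at 14 dpp (adjusted p = 0.0351), and the share of all probe sets called with these weights is not given.

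The change of the genotype difference between the ages was tested directly. It was positive for all 10 genes, from 0.11 (Gata4) to 1.18 (Inha) in the model of group means and from 0.02 to 0.88 with the block. Of all probe sets 58.8% and 60.8% were positive, with medians of 0.16 and 0.17, and Gata4 lay below that median in both models. No member was called in either (limma, 0.204% and 1.2% of all probe sets called), and 0 and 2 genes had an unadjusted p below 0.05 (5.61% and 12.6%). The nearest was Dhh, at 0.82 ± 0.23 with the block (adjusted p = 0.0931). A difference between the ages was therefore not shown for any single gene. Averaged over both ages, no member was called in the model of group means (2.77% of all probe sets called), and Dhh was called with the block at 0.38 (adjusted p = 0.0418, 8.6% called).

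With age, 6 of the 10 genes fell in wild type between 14 and 17 dpp in the model of group means, which called 21.4% of all probe sets and 16.5% as lower. They were Inha (-2.94 ± 0.78), Amh (-2.49 ± 0.64), Dhh (-2.17 ± 0.50), Gata4 (-1.87 ± 0.42), Fshr (-1.56 ± 0.32) and Sox9 (-1.14 ± 0.34), with adjusted p from 0.00577 to 0.0287. Without the first 14 dpp wild type only Fshr was called, and without the third of that group Amh, Dhh and Fshr. The shares of all probe sets called without these arrays are not given. All arrays of set 3 are of 17 dpp and all arrays of set 2 of 14 dpp, so only set 1 holds both ages. Within set 1 no member was called (2.18% of all probe sets called). All 10 differences were negative there, from -0.03 (Rhox5) to -1.96 (Amh), on 2 arrays of 14 dpp and 1 of 17 dpp, with a median of -0.82. All probe sets had a median of -0.29 within set 1, where 34.2% were positive, and of -0.44 over all arrays, where the members' median was -1.35. Inha was then -0.59 ± 0.29 and Dhh -0.64 ± 0.29, and Fshr was -1.35 ± 0.46 (adjusted p = 0.16). With the block Cldn11 was the 1 gene called, at -0.82 ± 0.25 (adjusted p = 0.049, 7.63% of all probe sets called), against 0.55 ± 0.45 over all arrays.

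In mutants, Gata4 fell by 1.76 ± 0.37 in the model of group means (limma, adjusted p = 0.0245, 1.92% of all probe sets called), and no member was called with the block (1.37%) or within set 1 (0.685%). No member was called when mutant replicate 3, 4 or 5 of either age was left out. There were 4 without the first 17 dpp mutant or the second, and 2 without the first 17 dpp wild type (Gata4 and Inha). The shares of all probe sets called without these arrays are not given, so the counts are no result about the members alone. The members' median was -0.77 over all arrays and -0.22 within set 1, where all probe sets had -0.34 and -0.10. In set 1 the mutant signals of Inha were 11708 and 10467 at 14 dpp and 10714 and 12914 at 17 dpp, so that these ranges overlapped. Rhox5 in the same mutants went from 2220 and 1599 to 3485 and 3771, a difference of 0.94 ± 0.38 (limma, adjusted p = 0.479). Without the arrays of set 3, Rhox5 was called higher at 17 dpp in mutants, at 0.87 (adjusted p = 0.0245), against -0.18 over all arrays.

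**Figure D3:**
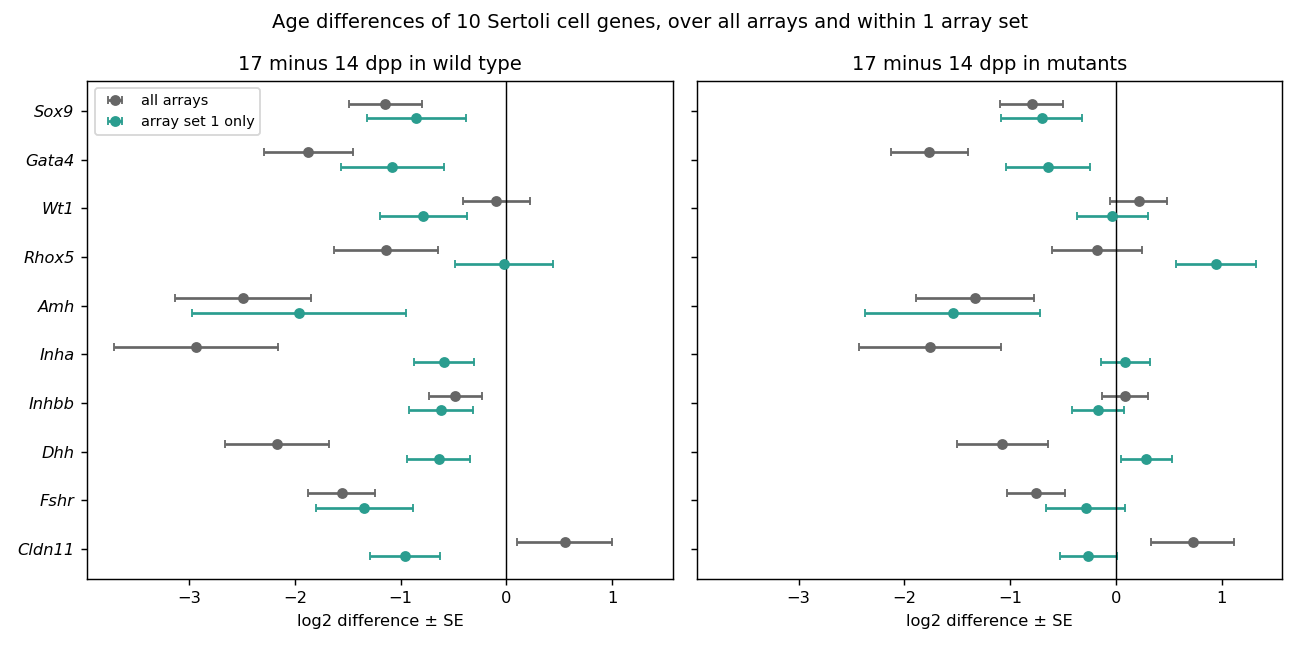
Log2 difference, 17 minus 14 dpp, with its SE for the 10 genes in wild type (left) and mutants (right), over all arrays (grey) and within array set 1 alone (green). In wild type Inha moves from -2.94 to -0.59 and Cldn11 from 0.55 to -0.96 when only set 1 is used.

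Arrays of 1 group could be compared between sets. Among 17 dpp arrays, set 3 minus set 1 was -3.13 in mutants and -3.05 in wild type for Inha, and -1.82 and -1.84 for Dhh. For Cldn11 it was 1.57 and 1.73. The median of all probe sets shifted by -0.10 and -0.16 between the same arrays. The brightest probe set of Inhbb shifted by -0.11 and -0.14, close to that median, and Sox9 by 0.56 and -0.13. The shift was thus of like size in both genotypes for Inha, Dhh, Cldn11 and Inhbb, and exceeded the genotype difference in the first 3 of these.

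Further genes of the Sertoli cell and its pathways were counted at 17 dpp with the block, beside the 10.8% of all probe sets called higher and 8.05% called lower. These lists, like the 10 genes, were drawn up with earlier results of these data known. Of 15 genes of inhibin, activin and AMH signalling tested, 5 were higher and 0 lower, with a median of 0.39. They were Fst, the activin-binding follistatin (0.96 ± 0.24, adjusted p = 0.00932), Amhr2, the AMH receptor (0.92 ± 0.18, adjusted p = 0.00157), Acvr2b, an activin receptor, and the signal transducers Smad3 and Smad4. Amhr2, Smad3 and Smad4 also passed in the model of group means, which called 3 of the 15. Of 12 hedgehog pathway genes, 2 were higher, namely Gas1, a co-receptor (0.99 ± 0.23), and Smo, the transducer that the hedgehog receptor holds in check (0.88 ± 0.18, adjusted p = 0.00288, and 1.05 ± 0.27 with adjusted p = 0.0305 in the model of group means).

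Of 17 genes of the blood-testis barrier and of junctions, 4 were higher and 0 lower, with a median of 0.30 against 0.24 for all probe sets. They were Vcl (0.71 ± 0.12), which encodes vinculin, Ctnna1 (0.67 ± 0.12), which encodes α-catenin, Gja1 (0.63 ± 0.15), which encodes connexin 43, and Espn, an actin bundler of Sertoli cell junctions. Of 20 secreted and metabolic products of Sertoli cells, 8 were higher and 0 lower, with a median of 0.55. The largest were Ptgds, a prostaglandin D synthase (1.55 ± 0.43, adjusted p = 0.017), Eppin, a protease inhibitor (0.76 ± 0.18), and Defb19, a defensin (0.73 ± 0.18). The others were Clu, Kitl, Shbg, Aldh1a1 and Vim. Of 8 further Sertoli transcription regulators, Gata6 was higher (0.48 ± 0.16) and Zfpm2, the FOG2 partner of GATA4, was lower (-0.85 ± 0.18, adjusted p = 0.003). In the model of group means no gene of these last 3 lists was called.

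Markers of other cell types moved at 17 dpp too, and their part in the Sertoli cell differences was not tested. With the block, 1 of 6 Leydig cell markers was higher (Scarb1), with a list median of 0.74, 3 of 9 macrophage markers (Cd68, Csf1r and Adgre1; 0.74), 4 of 10 spermatogonia markers (Uchl1, Zbtb16, Stra8 and Sall4; 0.83) and 1 of 6 peritubular myoid markers (Acta2; 0.42). Of 7 endothelial markers none was called (median 0.29), and none of these lists had a gene called lower. In the model of group means, 0 of the 6 Leydig, 10 spermatogonia and 6 myoid markers were called, and 1 of the 9 macrophage markers, Csf1r. The members' median of 0.55 with the block lay within the span of the lists of the other somatic cells and spermatogonia, from 0.29 to 0.83. Of 7 round spermatid markers with the block, Prm2 was higher and Acr lower, with a median of 0.13. All 11 pachytene markers were lower, with a median of -5.85. The summed signal of the 10 Sertoli cell genes was 18938 to 33869 in mutants and 13903 to 19575 in wild type, so that these ranges overlapped. The sum of 6 Leydig markers was 6561 to 8866 in mutants and 2674 to 5298 in wild type, and these ranges did not overlap. At 14 dpp all 11 pachytene markers already had lower means in mutants, and 9 of them were called lower. The Sertoli cell sums at 14 dpp were 28049 to 30898 in mutants and 26032 to 31768 in wild type.

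**Figure D4:**
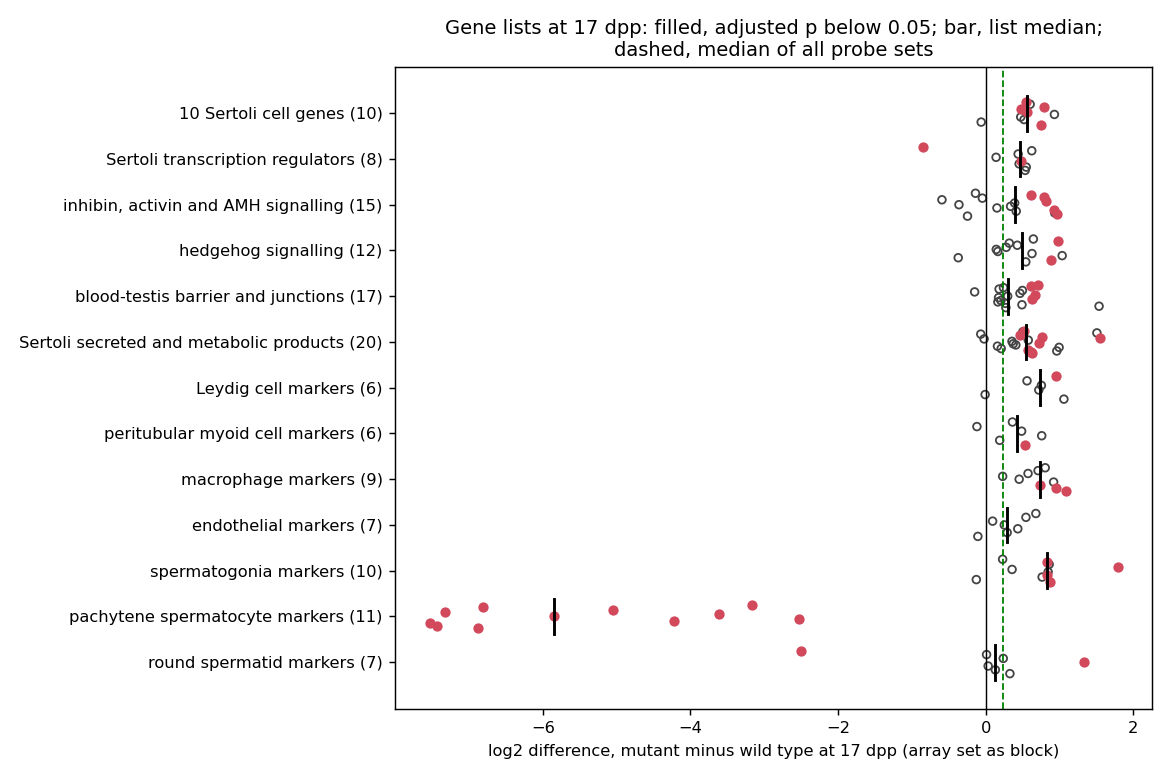
Log2 difference at 17 dpp, mutant minus wild type with the array set as a block, for each tested gene (points; filled at an adjusted p below 0.05) of 13 lists, with the number of genes in brackets, a bar at each list's median and a dashed line at the median of all probe sets. The Sertoli cell lists lie mostly to the right of 0, as do those of Leydig cells, macrophages and spermatogonia, and all 11 pachytene spermatocyte markers lie to the left.

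Genes with the most similar profile were sought for the 5 genes called with the block, as the root mean square difference over 18 arrays between profiles centred within each array set. The choice of these 5 was made after the data were seen, since no member was called in the model of group means. The nearest of 15297 other genes was Ppp1r21 for Inha (0.098, followed by Rab5c), Ldhb for Dhh (0.13, followed by Cadm1) and Ywhag for Inhbb (0.10, followed by Mbd2). For Cldn11 it was Trpm7 (0.12, followed by Tm6sf1), and for Sox9 it was Mcu (0.18, followed by Cdc25b). Among the members, Inhbb and Wt1 were 0.14 apart and Inha and Dhh 0.20 apart.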

How the data were processed

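Whole testes gave total RNA (Qiagen kit), of which 6 ug went into biotin-labelled cRNA for Affymetrix mouse arrays, per the labels' protocols. The authors deposited linear intensity values per probe set, named MAS5 signal in the submitters' processing notes. A mean trimmed by 2% at each end came to 394.9 on the 7 arrays of set 3 and to 500.0 on the others. The number of arrays limits the precision, and detection calls were not used here.

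Of 45101 probe sets, 64 controls were left out of the tests. Testing required a signal past the 40th percentile of the same array on 3 arrays or more (34764 probe sets passed), and a gene was represented by its brightest probe set annotated to it alone. Log2 signal was fitted with limma 3.58.1 (R 4.3.3) as 4 group means with an intensity trend, two-sided, with Benjamini-Hochberg adjustment over all 34764 and a threshold of 0.05. Each ± is limma's standard error. Array sets were bounded at ratios of 1.9 and 10 and fitted as a fixed block or separately, with the spread shared by all arrays. The 2 models were also run on values simulated from the model with the array set block. That run could not show whether the block suits the real arrays.

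The members and lists were chosen with earlier results of these data known. Named genes were the 10 members, up to 3 called genes of largest difference per list, and the genes nearest in profile. The other called genes of a list were named after their values were seen. Same-numbered arrays deviated together at 14 dpp (r = 0.283, 0.355 and 0.385, each pair within 1 array set) and not throughout at 17 dpp (-0.227 to 0.777), so the replicate number was an alternative. Scaling, filters, an offset, array weights, the variance model and single arrays left out were the other alternatives.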

Additional observations from a re-analysis of the deposited data

Results flagged for a closer look

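Within groups of 4 or 5 arrays, 7 of 45 tested groups of member signals had 1 array far from the others (log2 signal, gap over range above Dixon's 95% value). Chance gives about 1 in 20 where the arrays of a group are alike. Every group tested mixes array sets and the same arrays recur, so that rate does not apply here. The first wild-type array of 17 dpp, the only one of its group in array set 1, was highest for Inha (12.90) and Dhh (10.52) and lowest for Cldn11 (11.27). The fifth wild type of 17 dpp was lowest for Sox9 (7.59) and Inhbb (11.11). Fshr was lowest in the fourth wild type of 17 dpp (6.55) and highest in the fourth mutant of 14 dpp (9.09).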

How the results depend on the processing

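Counts are member genes called of 10. The share of all probe sets called is given above for the model of group means, the array set block and single sets. For the other alternatives it is not given, so their counts cannot be set against it. At 17 dpp the genotype count was 0 in the model of group means and 5 with the array set block, 2 within set 3 and 1 with the replicate block. Without 1 array at a time it was 0 to 1. With the array set block, alternatives chosen after seeing the data gave 2 with a common median, 2 without an intensity trend, 1 on 17 dpp arrays only, and 2 to 6 without 1 array at a time. At 14 dpp array weights gave 1 in place of 0. The mean of both ages gave 1 with the array set block in place of 0. For age in wild type the count was 6, but 1 with the array set block, 0 within set 1, 3 without set 3, 3 with a common median, 3 with quantile normalization and 1 to 7 without 1 array at a time. For age in mutants it was 1, but 0 with the array set block, within set 1 and on the compared arrays only, 6 with array weights, and 0 to 4 without 1 array at a time. Cldn11 by age in wild type reversed to -0.82 with the block, and Rhox5 by age in mutants to 0.87 without set 3. The cause was not tested in any of these. The replicate block changed no other call, and the age contrasts could not be fitted with it, since replicate numbers lie within an age. Array set and age share most arrays, so the age differences rest on set 1 or on the block. Amh and the second probe sets of Gata4 and Dhh lie near the dim end of the arrays, where signals vary most.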
